A study of Mus musculus with 8 samples.

Results

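The genes described here encode 8 receptors of the tumour necrosis factor (TNF) receptor family that are displayed by T cells: Tnfrsf4 (OX40), Tnfrsf18 (GITR), Tnfrsf9 (CD137), Tnfrsf8 (CD30), Cd27, Tnfrsf1b (TNFR2), Tnfrsf1a (TNFR1) and Tnfrsf25 (DR3). Chromatin accessibility was read by ATAC-seq, in which a transposase cuts and tags open DNA, in 4 wild-type (WT) and 4 Flcn KO libraries. A peak belonged to a receptor gene if that gene was the nearest protein-coding gene, at a distance of at most 50000 bp from the peak, ties going to the nearest gene end. This rule gave 48 of the 57199 deposited peaks. The rule itself used no level or change, but the genes were chosen with earlier results of these data known. Tnfrsf8 held 17 of them, Tnfrsf1b 11, Tnfrsf9 9, Tnfrsf1a 4, Tnfrsf18 3, Cd27 3 and Tnfrsf25 1. Tnfrsf4 held 0.

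Each library came from 50000 Treg cells sorted from mouse spleen as CD4+ Foxp3-YFP+ and as CD45.2+ CD45.1-. The cells were taken from mixed bone marrow chimeras, in which marrow of more than 1 donor rebuilds the blood system, and the sort kept only cells with the CD45.2 form of the leukocyte marker. In the Flcn KO group these cells were Foxp3Cre Flcn fl/fl, so that Cre is made where Foxp3 is expressed. In the WT group they came from WT mixed chimeras, and the labels give no alleles beyond that and the YFP reporter. Ages, treatments and the deleted exons of Flcn are not given in the labels, which call the 4 libraries of each group biological replicates.

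Receptors of this family are engaged by trimeric ligands on neighbouring cells. Most of the 8 recruit TRAF adaptor proteins and feed the NF-kB and MAP kinase pathways, which support division and survival, while TNFR1 and DR3 carry a death domain that binds the adaptor TRADD. Treg cells display GITR, OX40 and TNFR2 at high levels, and signals through TNFR2, GITR, OX40 and CD137 can alter how many Treg cells accumulate and how they suppress.

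Library totals ran from 2723344 to 5111728 counts, and no difference in mean total between the groups was detected (p = 0.486 by exact permutation, two-sided; 4 against 4 libraries allow no p below 0.0286). The 2 tested peaks of Flcn ran from 12.5 to 20.2 and from 6.25 to 13.3 CPM (edgeR's normalised count) in WT, and from 10.4 to 16.8 and from 2.98 to 7.48 CPM in Flcn KO, with adjusted p = 0.679 and 0.463 by edgeR, and since the deleted part is unknown they do not check the genotype. All 9 Treg and CD4 T cell markers held peaks, with a summed level of 1660 to 1858 CPM in WT against 1714 to 2009 CPM in Flcn KO. Of their 95 tested peaks 3 rose, 1 fell and 91 did not pass (edgeR, adjusted p below 0.05), beside 2.37% called over all tested peaks. An unadjusted p below 0.05 was reached by 21 of the 95, beside 12.9% of all tested peaks. The B cell genes Ms4a1 and Cd79b, the myeloid genes Csf1r, Lyz2 and Adgre1 and the erythroid genes Alas2 and Hbb-bs held no peak. In sorted bulk cells, a lower share of cells with an open site and less openness per cell cannot be told apart. The summed level of each marker list ran, in WT and Flcn KO, from 55.8 to 87.6 and from 71.6 to 92.1 CPM for the 4 B cell genes with a peak, from 26.0 to 39.9 and from 18.7 to 27.0 CPM for the 4 of 7 myeloid genes, from 263 to 308 and from 271 to 376 CPM for the 5 of 5 CD8 T and NK cell genes, and from 31.1 to 39.0 and from 46.9 to 55.7 CPM for the 3 of 5 erythroid genes. By the same test, 0 of 10 B cell peaks and 0 of 6 myeloid peaks were called. Of 16 tested CD8 T and NK cell peaks 1 rose and 1 fell, and of 4 tested erythroid peaks 1 rose. The erythroid sums did not overlap between the groups, and their part in the results below was not tested.

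Sequences were available for the promoters: RefSeq start sites on GRCm38.p6, the assembly behind mm10, gave 10 windows for all 8 genes, each from 250 bases before to 50 after a start site, and 8 of the 10 overlapped a deposited peak. The windows shown are those where the data bear on a start site: both of Tnfrsf9, whose inner window holds the receptor peak with the largest decrease, that of Tnfrsf8, the receptor gene with the most peaks, and that of Tnfrsf4, whose peak the assignment gave to a neighbour. Each reads 5′ to 3′ on the gene's own strand, and capitals mark the bases that lie inside a deposited peak.
Tnfrsf9 first start site, chr4:150919905-150920204, plus strand: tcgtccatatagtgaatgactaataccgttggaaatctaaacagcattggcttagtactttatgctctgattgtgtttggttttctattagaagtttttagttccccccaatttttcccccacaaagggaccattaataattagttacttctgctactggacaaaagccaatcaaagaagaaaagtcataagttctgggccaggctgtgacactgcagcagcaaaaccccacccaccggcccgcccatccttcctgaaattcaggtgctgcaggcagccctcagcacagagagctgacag
Tnfrsf9 inner start site, chr4:150927749-150928048, plus strand: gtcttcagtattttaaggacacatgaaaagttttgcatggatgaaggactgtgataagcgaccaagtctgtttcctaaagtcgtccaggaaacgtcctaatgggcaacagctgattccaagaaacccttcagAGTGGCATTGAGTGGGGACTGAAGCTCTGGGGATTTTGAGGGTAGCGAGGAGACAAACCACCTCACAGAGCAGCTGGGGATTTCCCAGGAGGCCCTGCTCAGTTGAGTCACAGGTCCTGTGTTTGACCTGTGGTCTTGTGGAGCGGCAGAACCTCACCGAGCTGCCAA
Tnfrsf8, chr4:145315115-145315414, minus strand: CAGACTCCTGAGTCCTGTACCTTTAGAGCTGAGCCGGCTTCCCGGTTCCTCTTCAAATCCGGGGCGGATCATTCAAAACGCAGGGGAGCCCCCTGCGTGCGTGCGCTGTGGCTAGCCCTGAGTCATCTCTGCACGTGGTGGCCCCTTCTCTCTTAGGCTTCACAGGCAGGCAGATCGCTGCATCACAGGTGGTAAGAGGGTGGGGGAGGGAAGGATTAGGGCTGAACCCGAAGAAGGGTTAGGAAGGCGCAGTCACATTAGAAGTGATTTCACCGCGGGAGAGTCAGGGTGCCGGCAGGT
Tnfrsf4, chr4:156013445-156013744, plus strand: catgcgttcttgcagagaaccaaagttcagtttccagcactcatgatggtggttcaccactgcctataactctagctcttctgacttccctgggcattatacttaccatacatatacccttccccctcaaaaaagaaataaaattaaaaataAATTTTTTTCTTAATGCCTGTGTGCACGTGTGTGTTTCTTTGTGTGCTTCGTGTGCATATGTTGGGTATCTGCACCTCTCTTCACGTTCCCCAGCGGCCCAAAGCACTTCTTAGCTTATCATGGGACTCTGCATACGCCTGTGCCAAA

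The 4 windows differ in how much of them lay in a deposited peak. A window without such a peak is not thereby shown to be closed. The first Tnfrsf9 window had 0 bases in a peak, the inner one 168 of 300, the Tnfrsf4 window 148 and the Tnfrsf8 window all 300. Of the other windows, that of Tnfrsf18 had 0 bases in a peak, and those of Tnfrsf1b, Cd27 and Tnfrsf1a had 266, 208 and 209. The GC content ran from 43.7% at Tnfrsf4 to 67.0% at the inner window of Tnfrsf25, beside a median of 52.7% over all 32851 windows.

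Short motifs were searched as plain letters on both strands. The E-box core CACGTG, which TFEB and TFE3 recognise, was in the Tnfrsf8 window at -119 and in the Tnfrsf4 window at -74 from the start site, and it was in 7.15% of all windows. The AP-1 letters TGANTCA were in the inner Tnfrsf9 window at -15 and in the Tnfrsf8 window at -132 (7.81% of all windows). A loose NF-kB-like motif (GGG and CC with 5 free bases between them) was in 7 of the 10 receptor windows, beside 50.8% of all windows, with overlapping matches on both strands starting at -43 and -42 in the inner Tnfrsf9 window. The ETS letters CCGGAA were in 3 of 10 (14.9% of all windows), and the forkhead letters TGTTTAC and RUNX letters TGTGGTT in 0 of 10 (3.65% and 5.27%). A match is a description of letters and no evidence of binding.

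With all 8 libraries, 4 of the 48 receptor peaks were called as changed in Flcn KO cells. Of these, 1 at Tnfrsf1b and 1 upstream of Tnfrsf8 rose by 1.30-fold and 1.38-fold. The others, 1 inside Tnfrsf8 and 1 at the inner start site of Tnfrsf9, fell by 1.08 and 1.40 on the log2 scale. The other 44 did not pass the test, which was edgeR's quasi-likelihood test with Benjamini-Hochberg adjustment over all 47859 tested peaks at an adjusted p below 0.05. All 48 receptor peaks passed the low-count filter. The Tnfrsf9 peak that fell passed it through the WT libraries, where it is higher, and a minimum count of 30 left it untested. The count and share of called receptor peaks include this peak. Over all tested peaks 2.37% were called, 1.35% higher and 1.02% lower, beside 8.33% (4 of 48) of the receptor peaks, and no test of that difference was made. The genes were chosen with earlier results of these data known, which limits that comparison. The calls also depended on single libraries: with 1 left out, 0 to 1 higher and 0 to 2 lower receptor peaks were called. At an unadjusted p below 0.05 there were 7 receptor peaks (3 higher and 4 lower), where 12.9% of all tested peaks reached it. The median log2 fold change was -0.05 over the receptor peaks and 0.00 over all tested peaks, and 28 of the 48 lay below 0. The groups' libraries did not overlap at 6 receptor peaks, 2 higher and 4 lower, beside 7.59% of all tested peaks.

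**Figure D1:**
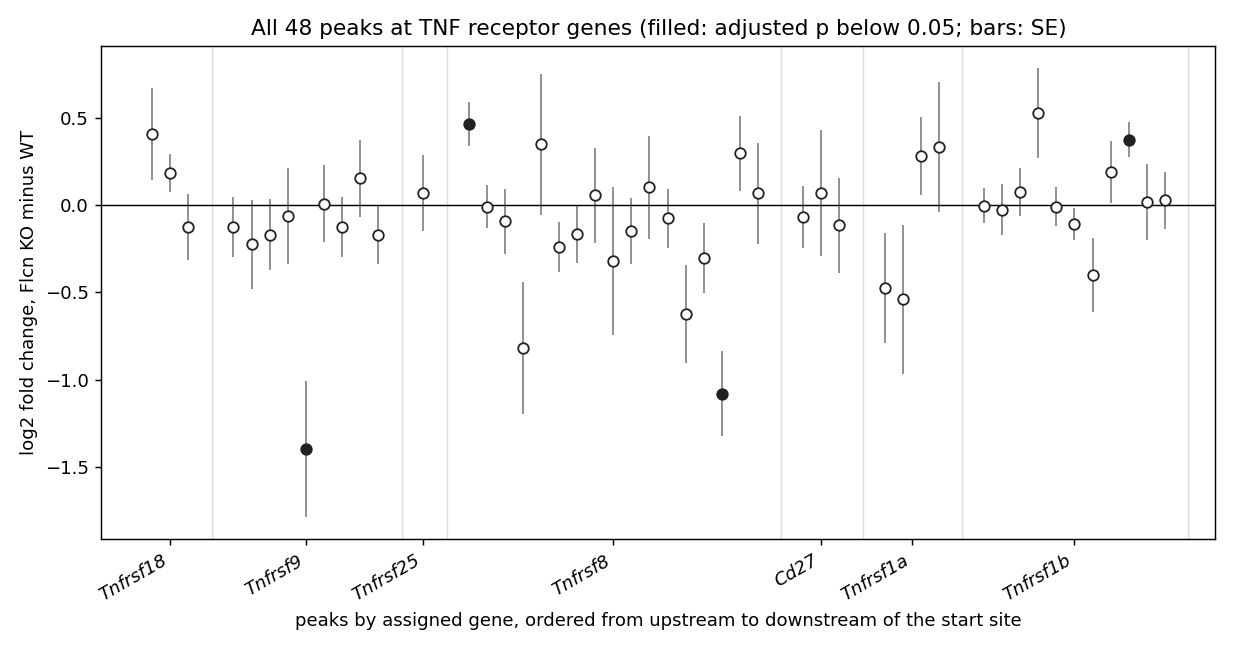
Log2 fold change (Flcn KO minus WT, y axis) of each of the 48 receptor peaks, grouped by assigned gene and ordered from upstream to downstream along the x axis; bars are standard errors and filled points have an adjusted p below 0.05. The 4 filled points lie at -1.40 (Tnfrsf9), -1.08 and 0.47 (Tnfrsf8) and 0.37 (Tnfrsf1b), and the open points lie between -0.82 and 0.53.

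The share of the libraries that fell on receptor peaks overlapped between the groups. The 48 peaks together held 1500, 1407, 1260 and 1278 CPM in WT replicates 1 to 4 and 1448, 1292, 1362 and 1329 CPM in Flcn KO replicates 1 to 4. Receptor peaks had a median level of 16.4 CPM, beside 8.97 CPM over all tested peaks. Their median standard error was 0.21 log2 units, beside 0.28.

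Tnfrsf9 encodes CD137, a costimulatory receptor induced after antigen stimulation and present on activated Treg cells. The inner of its 2 RefSeq start sites, at position 150927999 of chromosome 4, lies in the peak at chr4:150927881-150928103. This peak held 7.89, 5.80, 6.88 and 8.36 CPM in WT replicates 1 to 4 and 5.08, 2.14, 0.994 and 2.29 CPM in Flcn KO replicates 1 to 4. All Flcn KO libraries lay below all WT libraries, and Flcn KO replicate 1 was the nearest to them. The log2 fold change was -1.40 (SE 0.39, edgeR adjusted p = 0.0434). The raw counts were low, 38, 26, 27 and 34 in WT and 26, 8, 4 and 6 in Flcn KO. The peak passed the low-count filter through the WT libraries, where it is higher. The call ended by limma-voom (adjusted p = 0.0539) and without any 1 library other than Flcn KO replicate 1, with adjusted p up to 0.168, while without Flcn KO replicate 1 the log2 fold change was -2.02 (adjusted p = 0.00243).

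The other 8 Tnfrsf9 peaks did not pass the test, with log2 fold changes from -0.23 to 0.15. They include the peak nearest the first start site, whose centre lies 1.28 kb downstream of it and which had 11.4 ± 3.26 CPM in WT against 9.75 ± 1.94 CPM in Flcn KO (n = 4 each, ± SD). The most accessible Tnfrsf9 peak, 4.35 kb upstream of the gene at chr4:150915154-150915804, held 34.5, 33.9, 24.5 and 38.4 CPM in WT against 31.7, 37.4, 30.3 and 19.8 CPM in Flcn KO. These libraries overlapped (log2 fold change -0.12, SE 0.17, edgeR adjusted p = 0.842). Set against the fitted change of all Tnfrsf9 peaks together, the inner start-site peak differed by -1.25 log2 units, which did not pass (edgeR diffSpliceDGE, adjusted p = 0.0826).

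Tnfrsf8 encodes CD30, a receptor that activated lymphocytes display. Of its 17 peaks 1 rose, 1 fell and 15 did not pass. The peak that fell lies inside the gene, 40.1 kb downstream of the start site, at chr4:145274862-145275320, and exons were not annotated in the gene table used. It held 18.3, 23.2, 12.7 and 14.5 CPM in WT replicates 1 to 4 and 7.82, 10.2, 6.96 and 7.62 CPM in Flcn KO replicates 1 to 4. All Flcn KO libraries lay below all WT libraries, and the change was to 0.473 of the WT level (log2 fold change -1.08, SE 0.24, edgeR adjusted p = 0.00767). The call ended without WT replicate 2, the highest of the WT libraries (log2 fold change -0.91, adjusted p = 0.0843).

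The Tnfrsf8 peak that rose lies 45.9 kb upstream of the gene, at chr4:145361081-145361503, near the limit of the assignment. The next protein-coding gene, Gm42346, is 50.7 kb from it. It held 46.9, 41.0, 47.9 and 43.3 CPM in WT against 65.7, 49.7, 61.7 and 70.9 CPM in Flcn KO. All Flcn KO libraries lay above all WT libraries, with replicate 2 the lowest of them. The log2 fold change was 0.47 (SE 0.13, edgeR adjusted p = 0.0362), and the call ended by limma-voom (adjusted p = 0.0675) and without any 1 library other than Flcn KO replicate 2 (adjusted p up to 0.149).

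These Tnfrsf8 peaks were then set against the gene's peaks as a whole, a comparison added after the data had been seen. It uses the same counts and is no separate support for the 2 calls. Relative to the fitted change over all 17, the inner peak changed by -1.03 and the upstream peak by 0.52 log2 units (edgeR diffSpliceDGE, adjusted p = 0.0124 and 0.0351; 1.16% of the 38013 peaks so tested were called). The most accessible peak by count lies close to the one that rose, 38.9 kb upstream of the start site at chr4:145353829-145354243. It held 60.6, 58.9, 53.5 and 52.2 CPM in WT against 60.4, 47.0, 52.2 and 64.8 CPM in Flcn KO, with a log2 fold change of -0.01 (SE 0.12, 95% interval -0.26 to 0.24, edgeR adjusted p = 0.985). At the start site itself the peak at chr4:145315046-145315498, which covers the whole printed promoter, had 39.2 ± 8.87 CPM in WT against 34.7 ± 6.97 CPM in Flcn KO (n = 4, SD; change in log2 -0.17, adjusted p = 0.747).

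A pair of weaker Tnfrsf8 peaks reached an unadjusted p below 0.05 but not the adjusted threshold. The peak at chr4:145284677-145285045, inside the gene, held 10.8, 12.3, 8.16 and 11.3 CPM in WT against 5.47, 10.7, 5.47 and 6.10 CPM in Flcn KO (log2 fold change -0.62, SE 0.28, edgeR adjusted p = 0.319). Here Flcn KO replicate 2 lay among the WT libraries. The peak at chr4:145335943-145336434, 20.8 kb upstream of the gene, held 4.98, 8.48, 5.10 and 3.94 CPM in WT against 3.52, 3.74, 2.98 and 2.29 CPM in Flcn KO (-0.82, SE 0.38, adjusted p = 0.338), and its groups did not overlap.

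**Figure D2:**
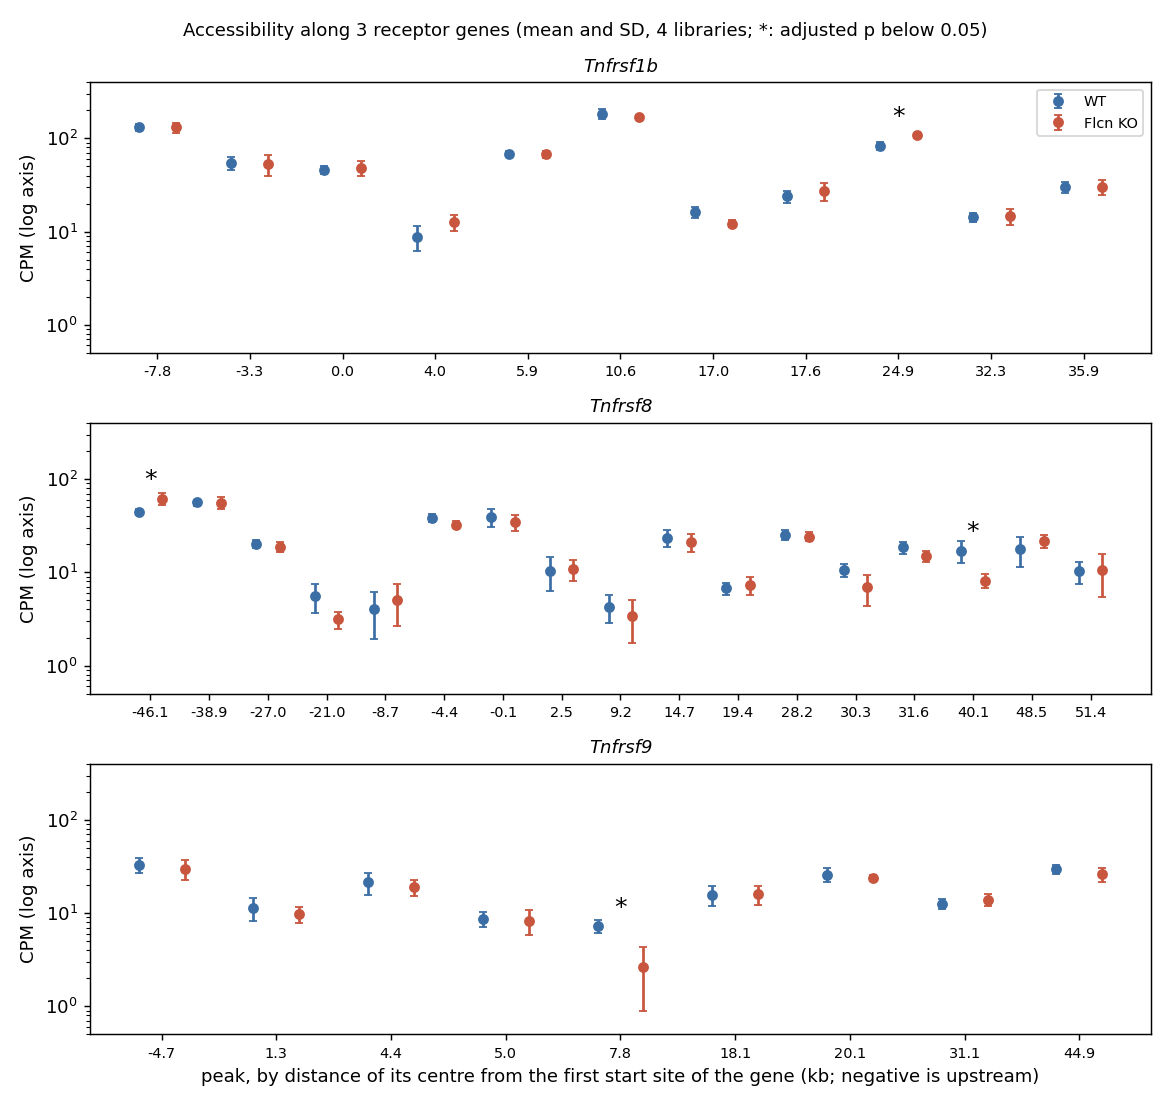
Normalised count (CPM, log axis) of each peak of Tnfrsf1b, Tnfrsf8 and Tnfrsf9, as mean and SD over 4 libraries for WT (blue) and Flcn KO (red), placed in order of the distance of the peak's centre from the first start site (kb, negative is upstream). Starred peaks have an adjusted p below 0.05: 24.9 kb downstream at Tnfrsf1b, 46.1 kb upstream and 40.1 kb downstream at Tnfrsf8 and 7.84 kb downstream at Tnfrsf9.

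Tnfrsf1b encodes TNFR2, the receptor for TNF that Treg cells carry at high levels, and it had the highest level per kb of the 7 genes with peaks. Of its 11 peaks 1 rose and 10 did not pass. The peak that rose lies inside the gene, 24.9 kb downstream of the start site, at chr4:145221431-145222434. It held 94.9, 81.2, 74.5 and 84.1 CPM in WT replicates 1 to 4 and 117, 111, 102 and 102 CPM in Flcn KO replicates 1 to 4. All Flcn KO libraries lay above all WT libraries, by 1.30-fold on average (log2 fold change 0.37, SE 0.10, edgeR adjusted p = 0.0389).

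The Tnfrsf1b call held by DESeq2 (adjusted p = 0.0326) and limma-voom (0.0351) and ended when any 1 library other than WT replicate 1 and Flcn KO replicate 4 was left out (adjusted p up to 0.157). Set against all Tnfrsf1b peaks together this peak differed by 0.34 log2 units, which did not pass (edgeR diffSpliceDGE, adjusted p = 0.186). The most accessible of the 48 peaks, inside Tnfrsf1b at chr4:145235928-145236543, held 213, 190, 176 and 161 CPM in WT against 181, 161, 168 and 176 CPM in Flcn KO. The libraries overlapped (log2 fold change -0.11, SE 0.09, 95% interval -0.30 to 0.08, edgeR adjusted p = 0.693).

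At the Tnfrsf1b start site, the peak at chr4:145246700-145247086 had 45.7 ± 4.65 CPM in WT against 48.2 ± 8.49 CPM in Flcn KO (n = 4 each, ± SD), a log2 fold change of 0.07 (adjusted p = 0.889). A small peak inside the gene at chr4:145242801-145243017 held 8.93, 12.5, 7.39 and 6.40 CPM in WT against 14.9, 11.2, 14.4 and 9.91 CPM in Flcn KO. It reached an unadjusted p of 0.0463 but not the adjusted threshold (log2 fold change 0.53, SE 0.26, edgeR adjusted p = 0.374). Tnfrsf1b and Tnfrsf8 are neighbours, 20.3 kb apart, so peaks between them were divided by distance alone.

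**Figure D3:**
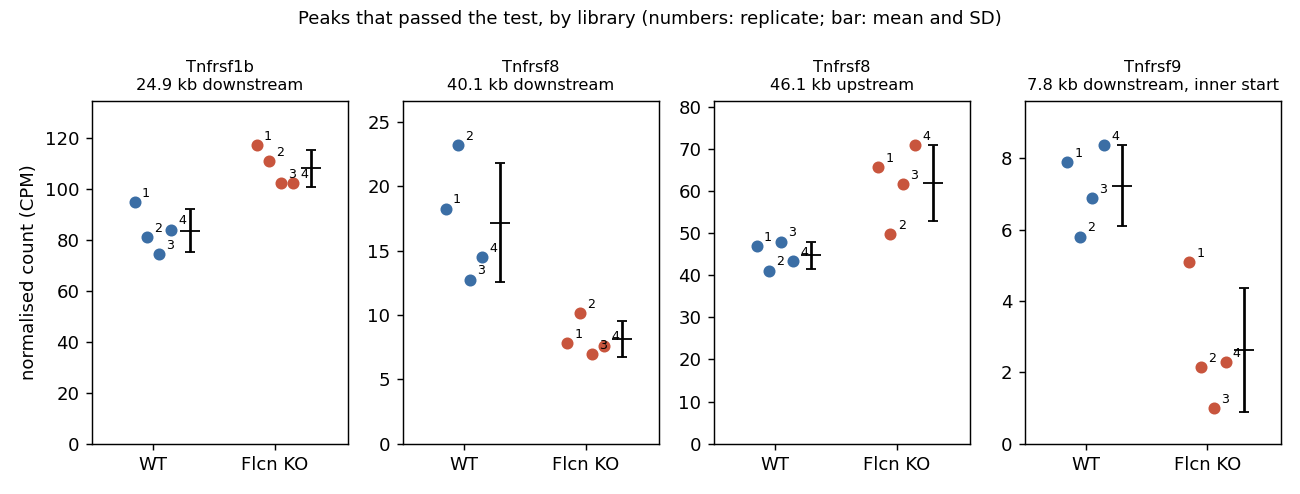
Normalised count (CPM, y axis from 0) of the 4 receptor peaks that passed the test in each library; points are libraries numbered by replicate (WT blue, Flcn KO red) and bars give mean and SD. In all 4 panels the groups do not overlap; at the inner start site of Tnfrsf9 the Flcn KO libraries lie between 0.994 and 5.08 CPM and the WT libraries between 5.80 and 8.36 CPM.

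Tnfrsf4 and Tnfrsf18 encode OX40 and GITR, receptors that Treg cells display and whose ligands are found on antigen-presenting cells. The genes lie side by side, 9.71 kb apart. None of the 3 peaks assigned to Tnfrsf18 overlaps that gene or its promoter window. Of the 3, 1 lies 1.73 kb downstream of Tnfrsf18 and 2 lie in the gap between the genes. The larger of these, at chr4:156021794-156022648, is 3.67 kb from Tnfrsf18 and 5.18 kb from Tnfrsf4. It held 72.2, 59.3, 60.7 and 68.9 CPM in WT against 67.8, 74.3, 76.1 and 79.2 CPM in Flcn KO, and Flcn KO replicate 1 lay among the WT libraries, below WT replicates 1 and 4. Its log2 fold change was 0.18 (SE 0.11, 95% interval -0.04 to 0.41, edgeR adjusted p = 0.523). The smaller, at chr4:156021398-156021628, is almost midway, 4694 bp from Tnfrsf18 and 4785 bp from Tnfrsf4, and had 8.54 ± 1.80 CPM in WT against 11.5 ± 2.9 CPM in Flcn KO (n = 4, SD; change in log2 0.40, adjusted p = 0.569).

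Tnfrsf4 had no assigned peak, although its start site is open. The peak at chr4:156013597-156014046 covers the Tnfrsf4 start site at 156013695 and lies across the end of the overlapping gene Sdf4, and the tie rule gave it to Sdf4. It is therefore outside the 48 and was looked at after the assignment was seen. It held 24.5, 22.3, 24.5 and 20.7 CPM in WT against 23.1, 26.2, 22.4 and 19.8 CPM in Flcn KO. The groups overlapped, and the log2 fold change was -0.00 (SE 0.17, 95% interval -0.35 to 0.35, edgeR adjusted p = 0.998).

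Cd27 encodes a costimulatory receptor of resting T cells that binds CD70. All 3 of its peaks did not pass, with log2 fold changes from -0.12 to 0.07. Its start-site peak at chr6:125236860-125237185 held 13.5, 11.8, 6.63 and 8.86 CPM in WT against 8.99, 6.41, 11.9 and 10.7 CPM in Flcn KO (SE 0.27, edgeR adjusted p = 0.914). The largest Cd27 peak, 4.36 kb outside the gene at chr6:125241493-125241969, held 28.6, 28.1, 19.6 and 23.4 CPM in WT against 25.4, 19.8, 22.4 and 28.2 CPM in Flcn KO (log2 fold change -0.07, adjusted p = 0.924). Both sets of libraries overlapped across most of their range.

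The death-domain receptors had the lowest mean levels per kb. Tnfrsf1a encodes TNFR1, and its 4 peaks, at the start site and inside the gene, had log2 fold changes from -0.54 to 0.33, of which none passed. The start-site peak at chr6:125349564-125349864 held 7.89, 8.92, 5.10 and 7.38 CPM in WT against 3.71, 6.41, 6.46 and 4.57 CPM in Flcn KO (-0.48, SE 0.32, edgeR adjusted p = 0.579). The largest Tnfrsf1a peak, at chr6:125353262-125353986, held 11.6, 10.7, 14.3 and 12.3 CPM in WT against 11.7, 14.4, 15.9 and 17.9 CPM in Flcn KO (0.28, SE 0.22, adjusted p = 0.669). Both overlapped between the groups. Tnfrsf25 encodes DR3, whose ligand TL1A can expand Treg cells, and its single peak, which overlaps both of its promoter windows at chr4:152115850-152116356, held 14.9, 14.7, 17.1 and 11.8 CPM in WT against 15.3, 11.2, 16.9 and 18.3 CPM in Flcn KO (0.07, SE 0.22, adjusted p = 0.944).

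Summed over all peaks of a gene, none of the 7 receptor genes with peaks passed the test, beside 1.84% of the 13491 gene sums tested (edgeR, adjusted p below 0.05), and 0 of the 7 reached an unadjusted p below 0.05, which 12.7% of all gene sums did. DESeq2 and limma-voom likewise called 0 of the 7. The CPM of gene sums was scaled to the counts of the tested gene sums, not of the tested peaks. It therefore differs from the CPM of the same peaks above: the single Tnfrsf25 peak had a WT mean of 14.6 CPM as a peak and 15.4 as a gene sum. The sum over Tnfrsf18 had the lowest p: it held 112, 98.3, 92.0 and 98.8 CPM in WT against 107, 112, 114 and 115 CPM in Flcn KO, a log2 fold change of 0.16 (95% interval -0.03 to 0.34, adjusted p = 0.496). The Tnfrsf9 sum held 194, 171, 146 and 184 CPM in WT against 178, 159, 152 and 145 CPM in Flcn KO (-0.13, interval -0.32 to 0.06, adjusted p = 0.611). Both sums overlapped between the groups. The intervals of the Tnfrsf1b and Tnfrsf8 sums ran from -0.12 to 0.21 and from -0.21 to 0.14, and those of Cd27, Tnfrsf1a and Tnfrsf25 from -0.34 to 0.24, -0.27 to 0.34 and -0.34 to 0.51.

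Levels between genes were compared per kb of peak, with the scaling of the gene sums. They describe the assigned peaks, and none of the 3 Tnfrsf18 peaks overlaps that gene or its start site. In WT, Tnfrsf1b had the highest level at 117 ± 10.8 CPM per kb, followed by Tnfrsf18 at 64.3 ± 5.51, Tnfrsf8 at 50.9 ± 5.96, Cd27 at 41.1 ± 7.42, Tnfrsf9 at 39.2 ± 4.67, Tnfrsf25 at 30.4 ± 4.65 and Tnfrsf1a at 18.0 ± 1.06 (SD, n = 4). Tnfrsf1b, Tnfrsf18 and Tnfrsf1a did not overlap their neighbours in this order over the WT libraries. The range of Cd27 overlapped those of Tnfrsf8 and Tnfrsf9, and the range of Tnfrsf9 overlapped that of Tnfrsf25. The genes were read in the same libraries, and within every WT library Tnfrsf8 lay above Cd27. The order of Cd27 and Tnfrsf9 differed between WT libraries, as did that of Tnfrsf9 and Tnfrsf25, so these orders are not resolved. The order by mean level was the same in Flcn KO.

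**Figure D4:**
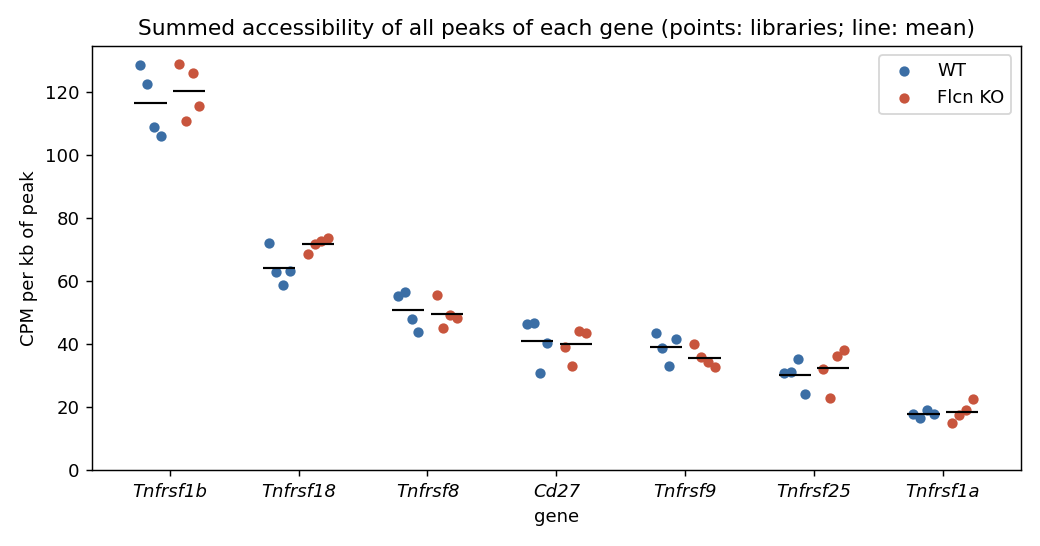
Summed normalised count of all peaks of each receptor gene, per kb of peak (CPM per kb, y axis from 0), for each WT (blue) and Flcn KO (red) library, with the group mean as a line. Tnfrsf1b lies highest, with a WT mean of 117, and Tnfrsf1a lowest, at 18.0, and at each gene the groups overlap.

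The genes whose summed level followed each receptor most closely over the 8 libraries were named as a description, from at least 7082 candidate genes at or above the median level and more than 1 Mb away. Rpl22l1 followed Tnfrsf1a (Pearson r = 0.99), Wipf1 followed Tnfrsf1b (0.98), and Itpk1 followed Tnfrsf8 (0.97). Zfp706 followed Tnfrsf18 (0.97), Smim19 followed Tnfrsf9 (0.96), Bin1 followed Tnfrsf25 (0.94) and Atf7ip followed Cd27 (0.91). All genes were read in the same 8 libraries, which differ in total counts. Each r is the highest found among these candidates, so a high value is expected from the choice alone, and it is given with no p.

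Further genes of the pathway were counted by lists. An unadjusted p below 0.05 was reached by 6 of 43 tested peaks of other receptor genes, 7 of 78 of ligand genes and 10 of 104 of adaptor genes, beside 12.9% of all tested peaks. The called counts of each list stand beside 2.37% called over all tested peaks (edgeR, adjusted p below 0.05). No list was tested as a set. Among 20 other TNF receptor family genes, 16 had peaks, and of 43 tested peaks 1 rose, 1 fell and 41 did not pass (median log2 fold change 0.17, beside 0.00 over all tested peaks). A peak at a RefSeq start site inside Tnfrsf23, which encodes a decoy receptor for TRAIL, lies at chr7:143685669-143686103. It held 50.2, 57.3, 47.4 and 50.7 CPM in WT against 36.4, 38.5, 33.8 and 29.7 CPM in Flcn KO (-0.56, SE 0.13, edgeR adjusted p = 0.0127). All Flcn KO libraries lay below all WT libraries, and the call was lost when Flcn KO replicate 4 or WT replicate 2 was left out (adjusted p up to 0.0775). The other is a peak inside Tnfrsf10b, the death receptor for TRAIL, which held 67.3, 68.7, 76.5 and 72.3 CPM in WT against 84.5, 97.3, 97.0 and 101 CPM in Flcn KO, without overlap. Its log2 fold change of 0.41 (edgeR adjusted p = 0.0209) was no longer called when any 1 library other than WT replicate 3 and Flcn KO replicate 1 was left out (adjusted p up to 0.0846).

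Among 17 TNF ligand genes, 15 had peaks, and of 78 tested peaks 0 rose, 1 fell and 77 did not pass (median -0.09). The peak that fell lies 1.01 kb from Tnfsf9, which encodes the ligand of CD137, at chr17:57108767-57109212. It held 12.0, 18.7, 12.2 and 12.3 CPM in WT against 10.6, 5.34, 3.48 and 3.81 CPM in Flcn KO, without overlap (-1.19, SE 0.29, edgeR adjusted p = 0.0181). WT replicate 2 stood above the other WT libraries, and without it the call ended (-1.02, adjusted p = 0.131), as it did without Flcn KO replicate 2, 3 or 4 (up to 0.0950).

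Among 21 TRAF adaptor and non-canonical NF-kB genes, 20 had peaks, and of 104 tested peaks 1 rose, 1 fell and 102 did not pass (median 0.00). The peak that rose lies 5.02 kb from Tnfaip3, which encodes A20, a ubiquitin-editing inhibitor of NF-kB signalling, at chr10:18995524-18995891. It held 1.25, 3.12, 2.04 and 0.984 CPM in WT against 7.43, 6.15, 5.47 and 13.0 CPM in Flcn KO, without overlap (2.07, SE 0.41, edgeR adjusted p = 0.00224), and it is 1 of 14 tested Tnfaip3 peaks. The raw counts were low in WT, at 6, 14, 8 and 4, against 38, 23, 22 and 34 in Flcn KO. The peak passed the low-count filter through the Flcn KO libraries, where it is higher. With that limit, the call held in all 17 alternatives that gave a value (adjusted p up to 0.0261). The peak that fell lies 14.9 kb from Tank, a TRAF-binding adaptor gene, at chr2:61563199-61563667, and held 12.0, 21.4, 10.7 and 17.2 CPM in WT against 11.3, 5.88, 4.97 and 3.81 CPM in Flcn KO (-1.18, SE 0.29, adjusted p = 0.0180). Flcn KO replicate 1 lay among the WT libraries, and the call held only when the library left out was Flcn KO replicate 1, WT replicate 1 or WT replicate 3 (adjusted p up to 0.137 for the others).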

How the data were processed

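The file the authors deposited holds raw counts for shared peaks (mm10) in each library. The tools named in the submitters' processing notes are MACS2 2.1.1, BWA 0.7.16, bedtools 2.25.0, Trimmomatic 0.36, SAMtools 1.9 and Picard 2.9.4. Not given in the sources used here are their order, the transposase shift, duplicate handling and whether peaks came from pooled libraries. Between 88.7% and 92.7% of the counts in a library were even, so both ends of most fragments appear to be counted. Errors therefore rest on the spread between libraries.

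Starts were converted to count from 1. Peaks were assigned to spans of RefSeq protein-coding genes (GRCm38.p6), which carry no exons here. Peaks were filtered by edgeR's filterByExpr (minimum count 10; 47859 kept), scaled by TMM and tested with edgeR 4.0.16 (R 4.3.3, quasi-likelihood, robust, genotype only); gene sums were tested in the same way. Standard errors and 95% intervals were derived from each log2 change with its F value. Alternatives used DESeq2 1.42.0 and limma 3.58.1, other scalings and filters, halved counts, a replicate block and each library left out. Comparing a peak with its gene's peaks together (edgeR diffSpliceDGE) was added after the data had been seen. Counts of 47859 peaks were also simulated and filtered again. Among changed peaks that passed this filter, the test recovered 46.9% of 2-fold and 90.5% of 4-fold changes. Changed peaks that the filter removed are not in these shares, so recovery over all changed peaks was lower. Chi-square per peak between replicates ran from 2.17 to 3.73, so none was a copy of another.

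1 gene of a marker list is not reported here. The members and lists were chosen with earlier results of these data known. The text names, for each receptor gene, its most accessible peak, its peak with the lowest p, every called peak and peaks with an unadjusted p below 0.05; for each other list up to 4 called peaks; and the gene whose sum is most alike. Start-site peaks are given beside these.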

Additional observations from a re-analysis of the deposited data

Results flagged for a closer look

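Of 56 groups of 4 libraries checked for named peaks and gene sums, 2 held a library that stood apart by Dixon's test at the 95% level, which chance gives in about 1 of 20 groups. At the Tnfrsf8 peak at chr4:145284677-145285045, Flcn KO replicate 2 held 10.7 CPM, above 5.47, 5.47 and 6.10 CPM in the other Flcn KO libraries; without it the log2 fold change was -0.91 (edgeR adjusted p = 0.135), beside -0.62 with all libraries. At the Tnfsf9 peak, WT replicate 2 held 18.7 CPM, above 12.0, 12.2 and 12.3 CPM in the other WT libraries, and the call ended without it.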

How the results depend on the processing

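With all libraries 2 receptor peaks rose and 2 fell. Limma-voom called 1 and 1; a minimum count of 30 left 1 lower peak, since the Tnfrsf9 peak was then not tested. Assignment within 10 kb, or of peaks overlapping the gene span only, left 1 higher peak, and the latter left 29 of 48 peaks. The change relative to all peaks of the gene called 1 higher and 1 lower. Leaving out 1 library gave 0 to 1 higher and 0 to 2 lower receptor peaks. Over all peaks it gave 420 to 863 higher (644 with all) and 217 to 934 lower (489 with all), the lowest without Flcn KO replicate 3 and WT replicate 2 and the highest without Flcn KO replicate 1; a minimum count of 30 gave 282 lower. Over all gene sums it gave 102 to 284 higher (157 with all) and 38 to 277 lower (91 with all). No alternative called a receptor gene sum.

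The replicate block gave 2 higher and 2 lower receptor peaks and 736 higher and 639 lower peaks in all; same-numbered libraries did not deviate together (correlations of -0.05 to 0.08), so the numbers are not taken to pair them. No called peak changed direction. Uncalled changes near 0 did: the Tnfrsf1b sum was -0.034 with loess offsets, and leaving out 1 library gave ranges of -0.076 to 0.069 for the Tnfrsf8 peak 38.9 kb upstream, -0.24 to 0.013 for the upstream Tnfrsf9 peak, -0.022 to 0.20 for the Tnfrsf25 peak, -0.27 to 0.048 and -0.17 to 0.015 for the start-site and outer Cd27 peaks, and -0.054 to 0.13, -0.012 to 0.22, -0.10 to 0.024 and -0.15 to 0.034 for the Tnfrsf1a, Tnfrsf25, Tnfrsf8 and Cd27 sums. The cause was not tested. Among the called receptor peaks, the Tnfrsf9 inner peak had the fewest counts, 4 to 26 per Flcn KO library, and the largest SE.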
